A study of Mus musculus with 6 samples.

Results

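RAW 264.7 cells, a mouse macrophage line, were cultured for 3 days on calcium phosphate-coated zinc alloys, and the comparison here asks what was different when lithium was added to an alloy that already held manganese. It sets the 2 libraries of cells on CaP Zn0.8Mn0.1Li, the coated alloy with manganese and lithium, against the 2 libraries of cells on CaP Zn0.8Mn, the coated alloy with manganese alone. These are 4 of the 6 libraries of the study. The other 2 come from cells on CaP Zn, coated zinc without either metal, and their values are printed beside the comparison. All groups share the cell line, the coating, the zinc base and the 3 days of culture, and both groups compared share the manganese. There was no group with lithium and without manganese, so lithium is read only on top of manganese. RAW 264.7 is a single transformed line, which limits it as a model of macrophages in bone. The labels give no separate cultures for the libraries of a group, so a p-value here compares libraries whose spread may be technical.

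Macrophages that settle on an implant can take up inflammatory (M1) states, with cytokines and nitric oxide synthase, or repair-associated (M2) states, and some fuse into bone-resorbing osteoclasts. Lithium is known to inhibit glycogen synthase kinase 3, which restrains beta-catenin, and the phosphatases that recycle inositol. Zinc entering a cell is bound by metallothioneins and exported by zinc transporters, and the metallothionein genes are switched on by the metal sensor MTF1.

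The libraries held 14944070 to 17709290 counts, and 3 counts, the floor used here, correspond to 0.161 to 0.198 CPM, the library-scaled count used below. The library that differed from all others was CaP Zn0.8Mn replicate 1. Its mitochondrial share of counts was 7.88%, and in the other 5 it was 1.82% to 2.15%. Among 9815 genes of at least 5 CPM, the median absolute log2 difference from CaP Zn0.8Mn replicate 2 was 0.0957 for the first lithium library and 0.102 for the second, and the lithium libraries differed from each other by 0.0986. CaP Zn0.8Mn replicate 2 was thus as close to each lithium library as these were to each other, while replicate 1 was 0.604 to 0.620 away from these 3 libraries. All 10 macrophage markers were present, with summed levels of 10905 CPM in CaP Zn0.8Mn replicate 1, 17011 in replicate 2, 15540 and 16155 with lithium, and 11308 and 14509 on CaP Zn. Lyz2, the lysozyme gene, carried most of that sum, and without it the other 9 summed to 5044 CPM in CaP Zn0.8Mn replicate 1 and 2126 to 2462 in the rest. Of the 10 markers, 6 (Adgre1, Csf1r, Ptprc, Mpeg1, Cd14 and Fcgr1) were highest in replicate 1. The 6 epithelial markers were at 0 in every library, and fibroblast markers summed to at most 1.26 CPM. The 6 B cell markers summed to 122 CPM in that library and 32.0 to 40.3 in the rest, mostly from Ighm, with Ms4a1 at 0 in all libraries.

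No gene passed the test of lithium against manganese alone. The quasi-likelihood test of edgeR over all 6 libraries called 0 of 13156 tested genes (percent called: 0) at a Benjamini-Hochberg adjusted p under 0.05. There were 316 genes at an unadjusted p under 0.05, 67 of them higher and 249 lower with lithium, and the lowest adjusted p was 0.680. DESeq2 on the same libraries called 3 genes and limma-voom 0. Without CaP Zn0.8Mn replicate 1, edgeR called 2 genes (0.0152%), Gm10123 higher and the large mitochondrial ribosomal RNA mt-Rnr2 lower. That fit has a lone manganese library, which is assumed to vary like the libraries of the other groups. Without CaP Zn0.8Mn replicate 2, 8096 genes were called, which is the distance between replicate 1 and the lithium libraries. Each manganese library is therefore given separately below, and genes are described by their gap, the smallest of the 4 log2 CPM differences between a lithium and a manganese library where all 4 have the same sign.

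Both lithium libraries lay above both manganese libraries by a gap of at least 0.32 on the log2 scale, the minimum used throughout, in 332 genes (2.52%) and below both in 300 genes (2.28%). Counting a gap of any size, these were 2250 genes (17.1%) and 2298 genes (17.5%). Only 51 of the 332 higher genes and 73 of the 300 lower genes had a mean of at least 5 CPM over the 4 libraries. Over the 3 libraries other than CaP Zn0.8Mn replicate 1, 61 of the higher and 51 of the lower genes had such a mean. The order of these counts thus depends on that library. Against CaP Zn0.8Mn replicate 2 alone, 691 genes were higher by at least 0.32 in both lithium libraries and 503 lower. Of the 691, 397 (57.5%) were higher than CaP Zn0.8Mn replicate 1 too, while 228 (33.0%) were lower than it. Of the 503, 334 (66.4%) were lower than replicate 1 too and 136 (27.0%) were higher. Among all tested genes the lithium libraries were both above replicate 1 in 46.7% and both below it in 46.1%. The 2298 genes below both manganese libraries all lie among the 6071 genes below replicate 1. Likewise the 2250 above both lie among the 6138 above it. For a list mostly on 1 side of replicate 1, the shares of all tested genes are therefore a low reference on that side.

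**Figure D1:**
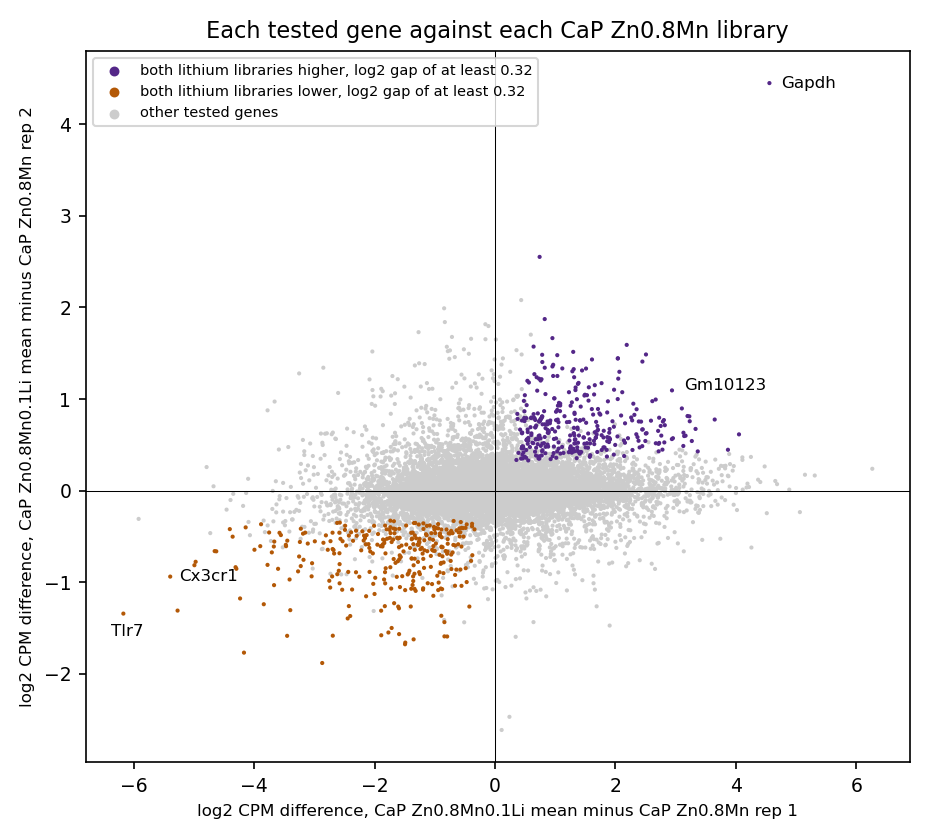
Each point is a tested gene, placed by the log2 CPM difference between the mean of the lithium libraries and CaP Zn0.8Mn replicate 1 (horizontal) or replicate 2 (vertical). The cloud is several times wider than it is high, and Gapdh stands alone at the upper right with 4.56 on the horizontal and 4.45 on the vertical axis.

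The widest gap belonged to Gapdh, the gene of the glycolytic enzyme glyceraldehyde-3-phosphate dehydrogenase (ENSMUSG00000057666, GRCm38 chromosome 6: 125161715 to 125166467, minus strand). It read 21.7 and 23.3 CPM on CaP Zn0.8Mn, 347 and 761 with lithium, and 340 and 448 CPM on CaP Zn. The manganese libraries lay close to each other and far below the other 4. The means were 22.5 ± 1.17 CPM with manganese and 554 ± 293 CPM with lithium (SD, n = 2 each), a log2 fold change of 4.62 (SE 0.46, edgeR adjusted p = 0.680, unadjusted p = 9.94e-05). DESeq2 called the gene over the same libraries (adjusted p = 1.03e-21). The other enzymes of the pathway did not share this: Gapdh was the only 1 of 24 glycolysis genes with a gap past 0.32 in either direction, and the list had a median log2 difference of 0.18 from CaP Zn0.8Mn replicate 1 and -0.04 from replicate 2.

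Gapdh has a processed pseudogene, Gm13394 (chromosome 2: 28933610 to 28934609, minus strand), which matched the Gapdh coding sequence over 999 aligned bases with 1 mismatch (99.9% identity). The 120 bases around that mismatch are shown because they are what a counting step has to tell the genes apart there; the capital marks the base that differs, and the sequences come from the GENCODE M21 transcripts on GRCm38, written 5′ to 3′ along the coding strand.
Gapdh: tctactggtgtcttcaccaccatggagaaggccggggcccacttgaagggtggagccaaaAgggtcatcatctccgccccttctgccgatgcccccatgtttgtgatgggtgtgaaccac
Gm13394: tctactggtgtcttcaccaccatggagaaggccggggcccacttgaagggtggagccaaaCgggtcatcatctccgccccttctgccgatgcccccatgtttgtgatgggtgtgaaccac
Gm13394 was counted at 865 and 1760 CPM on CaP Zn0.8Mn, 1715 and 1729 with lithium, and 1436 and 1845 on CaP Zn. Most of the reads of the pair were thus assigned to the pseudogene in every library. The sum of both genes was 886 and 1784 CPM on CaP Zn0.8Mn, 2062 and 2490 with lithium, and 1777 and 2293 on CaP Zn. On the sum, both lithium libraries still lay above both manganese libraries, but replicate 2 of the manganese group lay beside the first CaP Zn library. Over all 88 genes that share at least 100 stretches of 50 bases with Gapdh, the sums were 922 and 1858 CPM on CaP Zn0.8Mn and 2125 and 2543 with lithium. The part of read assignment in the Gapdh difference was not tested.

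Gm10123, called higher without CaP Zn0.8Mn replicate 1, is a processed pseudogene too (ENSMUSG00000062933, chromosome 9: 96895658 to 96896147, plus strand). Its 490 bases matched the coding sequence of Ppia, which encodes the peptidyl-prolyl isomerase cyclophilin A, with 0 mismatches. The first 120 bases of each are shown because nothing in them separates the copies, and for that reason they carry no capitals.
Ppia: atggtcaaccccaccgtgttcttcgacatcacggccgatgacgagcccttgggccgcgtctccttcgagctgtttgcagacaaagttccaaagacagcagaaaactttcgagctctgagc
Gm10123: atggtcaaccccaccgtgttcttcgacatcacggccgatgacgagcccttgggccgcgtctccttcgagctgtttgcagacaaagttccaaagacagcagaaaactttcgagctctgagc
Gm10123 was counted at 108 and 387 CPM on CaP Zn0.8Mn, 748 and 913 with lithium, and 905 and 902 on CaP Zn. Both manganese libraries lay below the other 4. Against CaP Zn0.8Mn replicate 2 the log2 fold change was 1.10 (SE 0.15, edgeR adjusted p = 0.0197), and with all 6 libraries it was 1.75 (SE 0.59, adjusted p = 0.680). Ppia itself (chromosome 11: 6415443 to 6419817, plus strand) read 1103 and 1865 CPM on CaP Zn0.8Mn and 1363 and 946 with lithium. The 2 genes together gave 1210 and 2253 CPM on CaP Zn0.8Mn and 2111 and 1859 with lithium. On the sum the groups overlapped, and CaP Zn0.8Mn replicate 2 had the highest value.

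Rps27rt, a copy of the ribosomal protein gene Rps27, was among the 15 lower genes named below. It read 149 and 155 CPM on CaP Zn0.8Mn, 100 and 102 with lithium, and 135 and 98.3 on CaP Zn. The replicates of each alloy pair were close, with means of 152 ± 3.96 and 101 ± 1.64 CPM (SD, n = 2 each) and a log2 fold change of -0.59 (SE 0.21, edgeR adjusted p = 0.680). Rps27 itself read 300 and 1236 CPM with manganese and 1422 and 1371 with lithium. The sum of 449 and 1391 CPM with manganese was below the 1522 and 1474 CPM with lithium, opposite in direction to Rps27rt alone.

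**Figure D2:**
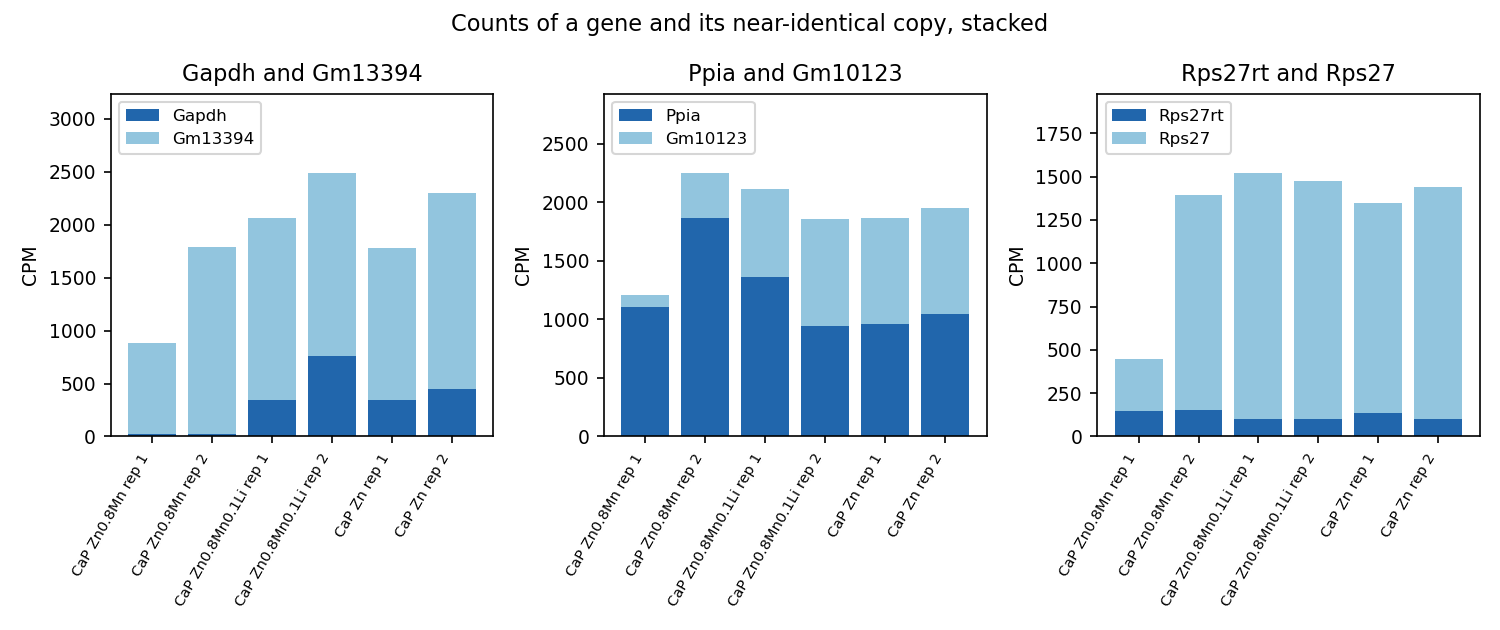
Stacked bars give the CPM (from 0) of a gene and its near-identical copy in each of the 6 libraries, for Gapdh with Gm13394, Ppia with Gm10123 and Rps27rt with Rps27. CaP Zn0.8Mn replicate 1 has the lowest sum in all 3 pairs, and replicate 2 of that group reaches 1784, 2253 and 1391 CPM. These sums of replicate 2 lie below both lithium libraries for the Gapdh and Rps27rt pairs and above both for the Ppia pair.

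The 15 protein-coding genes of at least 5 mean CPM with the widest gaps upward were, in order, Gapdh, Lst1, 4930404N11Rik, Psd, Rpl17, Pax3, 2310033P09Rik, Nckap1, Msantd2, Nmnat1, Ccl2, Setd4, Sp4, Gm21887 and Flt3l. After Gapdh, the gaps ran only from 0.76 down to 0.40 on the log2 scale. Each had an edgeR adjusted p of 0.680, and 8 had an unadjusted p under 0.05, against 316 of all 13156 tested genes. That count of 8 is favoured by the choice of genes with wide gaps between these same libraries. In 11 of the 15, both CaP Zn libraries also lay above both manganese libraries. The genes were chosen for low values in these same manganese libraries, which favours such a count, and the share over all tested genes was not computed. Rpl17 and Gm21887 share 44.7% and 59.7% of their 50-base stretches with other transcripts, so their counts are uncertain. Summed over the 12 genes that share at least 100 such stretches with Rpl17, itself a ribosomal protein gene, the libraries read 1102 and 1563 CPM on CaP Zn0.8Mn and 1573 and 1426 with lithium, and on that sum the groups overlapped.

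Lst1, a small gene of the leukocyte-specific transcript family in the major histocompatibility complex, read 3.24 and 10.7 CPM on CaP Zn0.8Mn, 18.4 and 25.3 with lithium, and 18.7 and 10.7 on CaP Zn. The lithium libraries were above the manganese libraries, but CaP Zn spanned the space between them (log2 fold change 1.64, SE 0.61, edgeR adjusted p = 0.680). Ccl2, the monocyte-attracting chemokine MCP-1, read 6.67 and 11.5 CPM on CaP Zn0.8Mn, 15.4 and 18.8 with lithium, and 10.3 and 10.4 on CaP Zn. Here the lithium libraries were the highest of all 6 (log2 fold change 0.91, SE 0.33, adjusted p = 0.680; against CaP Zn0.8Mn replicate 2, 0.57, SE 0.20). Flt3l, the ligand of the FLT3 receptor of dendritic cell precursors, read 3.63 and 7.11 CPM with manganese and 9.96 and 9.42 with lithium. Sp4, a transcription factor of the Sp family, had close replicates, at 18.2 and 18.9 CPM with manganese, 25.6 and 25.1 with lithium, and 22.5 in both CaP Zn libraries. CaP Zn lay between the other alloys for this gene (log2 fold change 0.45, SE 0.18, adjusted p = 0.680). Nmnat1, the nuclear enzyme of NAD synthesis, read 4.82 and 8.60 CPM with manganese against 11.5 and 11.8 with lithium. Nckap1, a subunit of the WAVE complex that drives actin branching, read 4.89 and 5.37 CPM against 9.24 and 7.28.

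**Figure D3:**
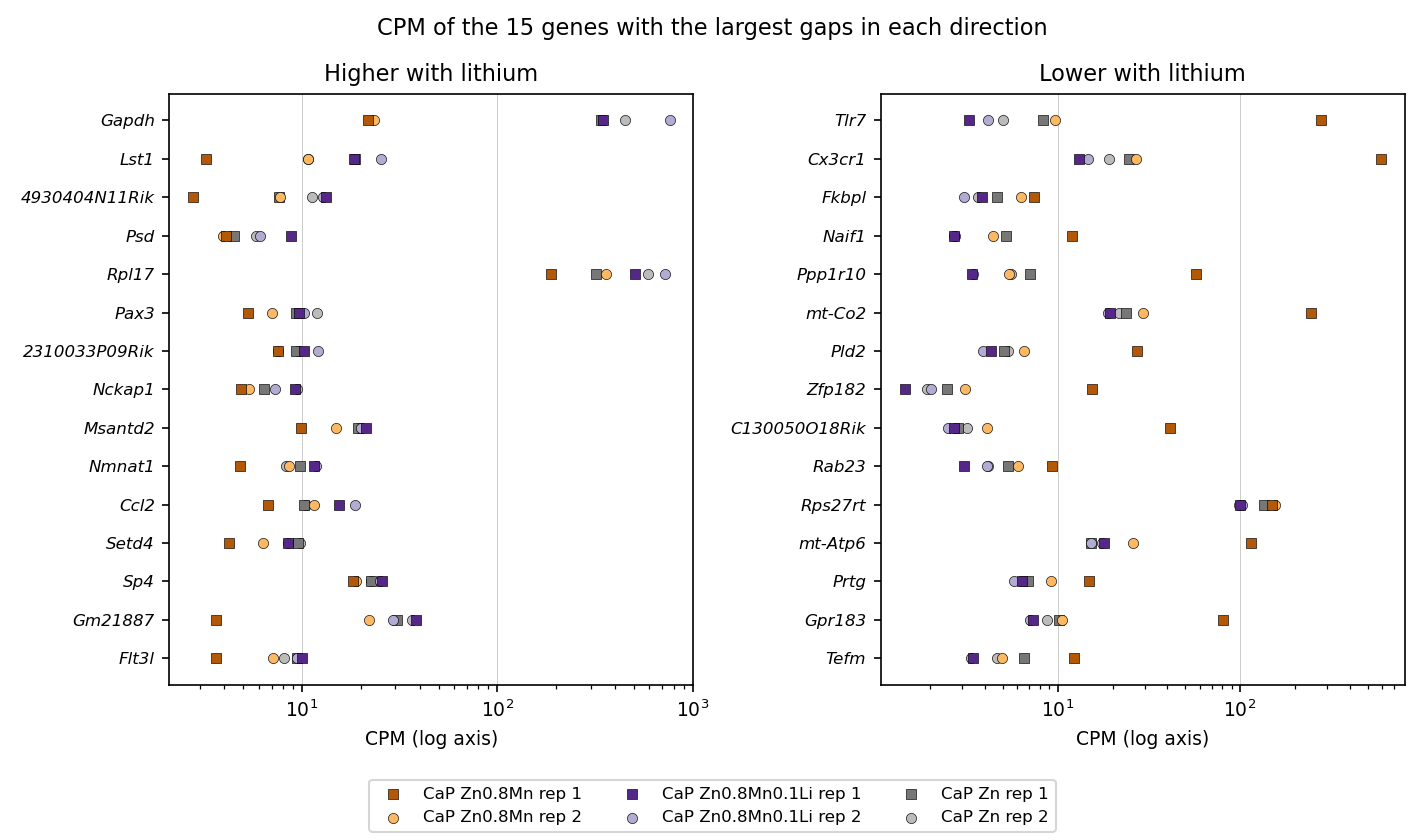
Points give the CPM (log axis) of each library for the 15 genes with the widest gaps higher (left) and lower (right) with lithium, squares for replicate 1 and circles for replicate 2. On the right, CaP Zn0.8Mn replicate 1 lies far out for most genes, such as Cx3cr1 at 592 CPM against 26.8 in replicate 2.

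The 15 genes with the widest gaps downward were Tlr7, Cx3cr1, Fkbpl, Naif1, Ppp1r10, mt-Co2, Pld2, Zfp182, C130050O18Rik, Rab23, Rps27rt, mt-Atp6, Prtg, Gpr183 and Tefm, with gaps from 1.18 to 0.51 in size. For 8 of them (Fkbpl, Naif1, Ppp1r10, Pld2, Zfp182, C130050O18Rik, Rab23 and Tefm) the mean without CaP Zn0.8Mn replicate 1 was under 5 CPM, so that library alone brought them past the minimum. All 15 had an unadjusted p under 0.05 and an edgeR adjusted p of 0.680. Among all 13156 tested genes, 316 had such an unadjusted p. The choice of genes with wide gaps between these same libraries favours low p-values, so the count of 15 is no separate evidence. In 12 of the 15, both CaP Zn libraries lay below both manganese libraries too. That count is likewise favoured by the choice of genes high in these manganese libraries, and it has no share over all tested genes beside it.

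Tlr7, the endosomal receptor for single-stranded RNA (chromosome X: 167304929 to 167330558, minus strand), read 279 and 9.63 CPM on CaP Zn0.8Mn, 3.26 and 4.16 with lithium, and 8.33 and 4.99 on CaP Zn. The lithium libraries were the lowest of all 6. The log2 fold change was -5.28 (SE 1.55, edgeR adjusted p = 0.680) with both manganese libraries and -1.38 (SE 0.31, adjusted p = 1.00) without replicate 1. Cx3cr1, the fractalkine receptor of monocytes and resident macrophages (chromosome 9: 119901616 to 120069879, minus strand), read 592 and 26.8 CPM on CaP Zn0.8Mn, 13.2 and 14.7 with lithium, and 24.7 and 19.2 on CaP Zn. Again the lithium libraries were below all others, and close to each other (13.9 ± 1.07 CPM, SD, n = 2). Without CaP Zn0.8Mn replicate 1 the log2 fold change was -0.95 (SE 0.18, edgeR adjusted p = 0.306), against -4.47 (SE 1.37, adjusted p = 0.680) with it. DESeq2 called both genes with all 6 libraries (adjusted p = 0.00238 for Tlr7 and 0.0167 for Cx3cr1) but not without that library (adjusted p = 1.00 and 0.264).

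Gpr183, the oxysterol receptor that guides immune cell migration, read 80.5 and 10.6 CPM on CaP Zn0.8Mn, 7.37 and 7.03 with lithium, and 10.2 and 8.76 on CaP Zn. Pld2, a phospholipase D, read 27.3 and 6.53 CPM with manganese and 4.29 and 3.91 with lithium. Ppp1r10, a nuclear regulatory subunit of protein phosphatase 1, read 57.0 and 5.43 CPM against 3.38 and 3.42. In these 3 genes the distance from CaP Zn0.8Mn replicate 1 was several times that from replicate 2, as it was for Tlr7 and Cx3cr1. Fkbpl, an immunophilin-like protein gene, had close manganese replicates, at 7.40 and 6.27 CPM against 3.86 and 3.06 with lithium and 4.62 and 3.65 on CaP Zn (log2 fold change -0.98, SE 0.33, edgeR adjusted p = 0.680).

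As a group, RNAs of the mitochondrial genome were lower in the lithium libraries than in the manganese libraries. In 11 of 12 tested mitochondrially encoded mRNAs both lithium libraries lay below both manganese libraries, against 17.5% of all tested genes, and 6 of the 12 passed a gap of 0.32, against 2.28%. None was called by either edgeR fit. The median log2 difference was -3.69 from CaP Zn0.8Mn replicate 1 and -0.36 from replicate 2, where all tested genes had medians of 0.0017 and -0.0057. The lithium mean was above replicate 1 in 0 of the 12, so the count of 11 rests mainly on replicate 2, which is 1 library. Both CaP Zn libraries lay below replicate 2 in only 4 of the 12, and CaP Zn overlapped with lithium in 5. mt-Nd1, a subunit of respiratory complex I, read 8462 and 585 CPM on CaP Zn0.8Mn, 402 and 424 with lithium, and 772 and 548 on CaP Zn (log2 fold change -3.45, SE 1.18, and -0.50, SE 0.16, without replicate 1). mt-Co2, a subunit of cytochrome oxidase, read 246 and 29.3 CPM on CaP Zn0.8Mn, 19.3 and 18.9 with lithium, and 23.6 and 21.8 on CaP Zn. mt-Atp6, of the ATP synthase, read 114 and 25.9 CPM with manganese and 17.9 and 15.2 with lithium. The lithium libraries were below all 4 others for mt-Nd1 and mt-Co2, while for mt-Atp6 CaP Zn (15.3 and 17.5 CPM) lay among them. Sequences of mt-Co2 and mt-Atp6 are held at 100% and 99.5% of their 50-base stretches by other transcripts, so their counts depend on how shared reads were assigned. Summed with the genes that share at least 100 such stretches, mt-Co2 read 352 and 51.1 CPM with manganese and 36.5 and 36.0 with lithium. The mt-Atp6 sum was 377 and 56.2 CPM with manganese and 40.0 and 34.2 with lithium. On both sums the lithium libraries lay below both manganese libraries.

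The large mitochondrial ribosomal RNA mt-Rnr2 was called lower without CaP Zn0.8Mn replicate 1. It read 2616 and 236 CPM on CaP Zn0.8Mn, 147 and 118 with lithium, and 183 and 173 on CaP Zn. The lithium libraries were the lowest and replicate 2 of the manganese group the highest of the 5 (log2 fold change -0.83, SE 0.12, edgeR adjusted p = 0.0197). With all 6 libraries the log2 fold change was -3.43 (SE 1.07, adjusted p = 0.680). Libraries were made from polyadenylated RNA, in which this RNA is measured only as far as it is carried along. The share of mitochondrial ribosomal RNA in the counts was 0.350% and 0.0615% on CaP Zn0.8Mn and 0.0451% and 0.0361% with lithium. Whether RNA quality or capture had a part in these differences was not tested.

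Toll-like receptors and their adaptors, which sense microbial products, leaned the same way. Both lithium libraries were below both manganese libraries in 12 of 22 members and above in 0, against 17.5% and 17.1% of all tested genes. The lithium mean was above CaP Zn0.8Mn replicate 1 in only 4 of the 22, so the 17.5% is a low reference for this list. Only Tlr7 and Tlr8 passed a gap of 0.32. Tlr8, like Tlr7 a receptor for single-stranded RNA, read 18.6 and 0.840 CPM on CaP Zn0.8Mn and 0.302 and 0.550 with lithium and its level outside that first library was close to the floor. The list's median log2 difference was -1.55 from CaP Zn0.8Mn replicate 1 and -0.11 from replicate 2. Tlr2, the receptor for bacterial lipoproteins, read 235 and 80.2 CPM with manganese and 68.4 and 67.7 with lithium, and Tlr4, the endotoxin receptor, read 178 and 23.5 against 22.3 and 21.5. For Tlr4 the gap was only 0.07 on the log2 scale, so nearly all of its difference lay with replicate 1. Tlr2 and Tlr4 were chosen after their values were seen, as were the members of gene lists named from here on, apart from Myc, Nr4a1 and the 10 genes named whatever their result.

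Core macrophage genes had 11 of 22 members lower in both lithium libraries and 1 higher, against 17.5% and 17.1% of all tested genes, with Cx3cr1 alone past a gap of 0.32. Their medians were -0.66 against CaP Zn0.8Mn replicate 1 and -0.10 against replicate 2. The lithium mean was above replicate 1 in 8 of the 22, so the 17.5% is a somewhat low reference for this list. Csf1r, the receptor of the macrophage growth factor CSF1, read 1598 and 374 CPM on CaP Zn0.8Mn, 319 and 324 with lithium, and 362 and 364 on CaP Zn. Mpeg1, a pore-forming protein of phagocytes, read 1298 and 259 CPM with manganese and 199 and 220 with lithium. Both genes were lower in both lithium libraries, with gaps of 0.20 and 0.24 in size. Because these are bulk samples of a single line, fewer cells expressing a gene and less of its RNA per cell cannot be told apart.

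**Figure D4:**
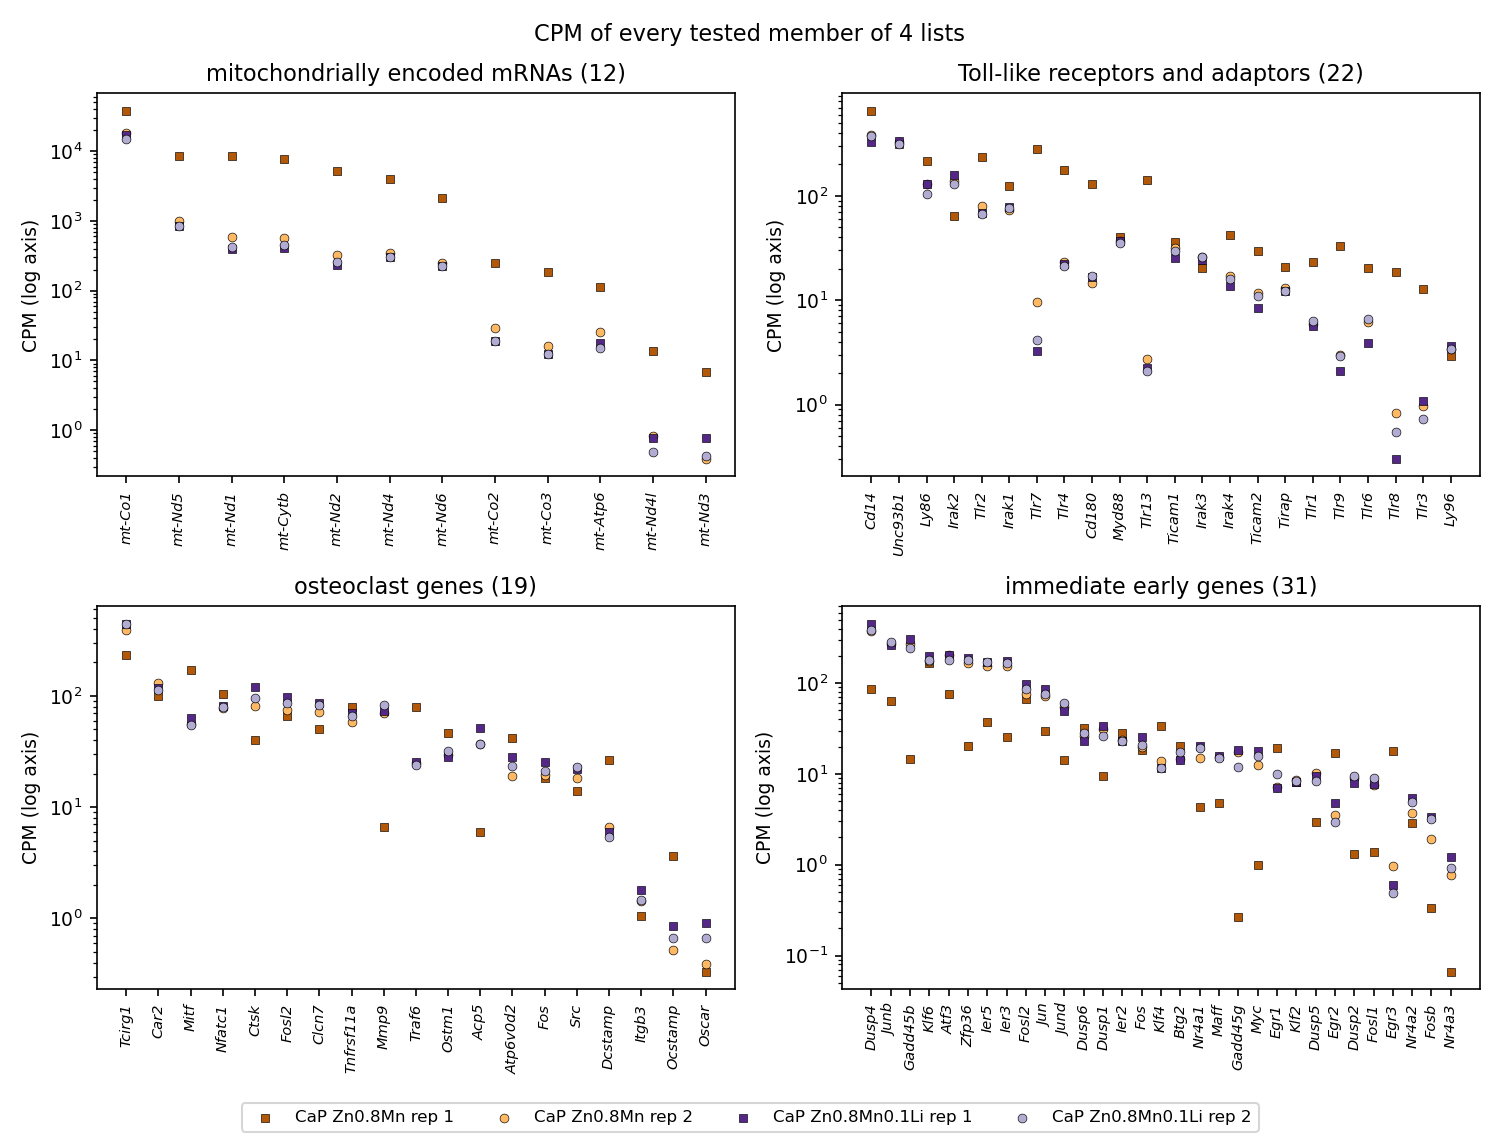
CPM (log axis) of every tested member of 4 gene lists in the manganese libraries (orange) and the lithium libraries (purple). CaP Zn0.8Mn replicate 1 (squares) sets the wide differences, while replicate 2 (light circles) lies next to the lithium points, as for Tlr4 at 23.5 CPM against 22.3 and 21.5.

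For Nos2, Tnf, Cd86 and Csf3, which are read in studies of macrophage polarization or inflammation, the lithium libraries did not both lie on 1 side of both manganese libraries. Nos2, the inducible nitric oxide synthase of M1 cells, read 8.79 and 110 CPM on CaP Zn0.8Mn, 107 and 107 with lithium, and 112 and 107 on CaP Zn. Tnf, the gene of tumour necrosis factor, stood at 14 and 153 CPM with manganese, 154 and 147 with lithium, and 112 and 150 on CaP Zn. For both genes 5 libraries lay together and CaP Zn0.8Mn replicate 1 lay far below. Against replicate 2 the log2 fold changes were -0.04 (SE 0.10) for Nos2 and -0.02 (SE 0.14) for Tnf, each with an edgeR adjusted p of 1.00. Cd86, an M1 costimulator, read 9.91 and 3.81 CPM on CaP Zn0.8Mn and 4.47 and 4.22 with lithium, so that the lithium libraries lay between the manganese libraries. Csf3, the granulocyte growth factor, read 0.198 and 11.8 CPM with manganese, 11.5 and 15.5 with lithium, and 5.32 and 5.44 on CaP Zn. Its lowest value rests on 3 counts, and the lithium libraries straddled CaP Zn0.8Mn replicate 2.

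Over all tested genes, 17.1% were higher and 17.5% lower in both lithium libraries, and the polarization lists are read against these shares. These shares are again a low reference where a list lay mostly on 1 side of CaP Zn0.8Mn replicate 1. For inflammatory cytokines the lithium mean was above that library in 11 of 11, and for chemokines in 12 of 13. The same held for 9 of 13 M1 genes and for only 5 of 18 M2 receptors and regulators. Of the M1 list, 4 of 13 M1 enzymes, receptors and costimulators were higher in both lithium libraries and 2 lower, with 0 past a gap of 0.32. Among inflammatory cytokines 2 of 11 were higher and 0 lower, and 1, Il27, passed a gap of 0.32. Among chemokines 4 of 13 were higher and 0 lower, with Ccl2 and Ccl6 past a gap of 0.32. Ccl6, a macrophage chemokine, read 2.51 and 4.01 CPM on CaP Zn0.8Mn, 5.74 and 5.56 with lithium, and 2.20 and 3.39 on CaP Zn. M2 receptors and regulators had 3 of 18 higher and 6 lower. The medians against CaP Zn0.8Mn replicate 1 were 0.55 for M1, 2.18 for cytokines, 1.20 for chemokines and -0.56 for M2 genes. Against replicate 2 they were -0.0070, -0.02, -0.02 and 0.04, all near 0 and all opposite in sign. Arg1, the arginase of M2 cells, was past a gap of 0.32 but read only 0.0661 and 0.452 CPM with manganese and 0.664 and 0.856 with lithium. Interferon-stimulated genes had 3 of 34 higher and 7 lower, with medians of 0.34 and -0.15.

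The known targets of lithium and the genes of the glycogen synthase kinase 3 pathway had shares near or below those of all genes. Of 21 tested members, 2 were higher (9.52%) and 3 lower (14.3%) in both lithium libraries, against 17.1% and 17.5% of all tested genes, 0 passed a gap of 0.32, and 0 were called. The medians were 0.016 against CaP Zn0.8Mn replicate 1 and -0.033 against replicate 2. Gsk3b, the kinase itself, read 145 and 96.0 CPM on CaP Zn0.8Mn, 96.7 and 90.7 with lithium, and 99.0 and 100 on CaP Zn. Lithium lay on both sides of replicate 2 (log2 fold change without replicate 1 -0.03, SE 0.10, edgeR adjusted p = 1.00). Gsk3a, the other isoform gene, read 38.9 and 66.4 CPM with manganese and 77.0 and 72.7 with lithium, with a gap of 0.13. Impa1, an inositol monophosphatase that lithium inhibits, read 43.5 and 51.3 CPM with manganese and 46.6 and 51.5 with lithium (log2 fold change 0.05, SE 0.19, adjusted p = 0.900). Inpp1, an inositol polyphosphate phosphatase likewise inhibited by lithium, read 16.2 and 10.1 CPM against 9.18 and 7.89, a gap of -0.13.

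Further along that pathway, Ctnnb1, the gene of beta-catenin, read 391 and 182 CPM with manganese and 179 and 201 with lithium, overlapping with replicate 2. Of 11 tested targets of beta-catenin, 3 were higher and 2 lower in both lithium libraries, against 17.1% and 17.5% of all tested genes, and Myc alone passed a gap of 0.32. Myc, a transcription factor of cell growth, read 0.991 and 12.4 CPM on CaP Zn0.8Mn, 18.1 and 15.9 with lithium, and 13.3 and 16.7 on CaP Zn. The lithium libraries were above both manganese libraries and overlapped with CaP Zn (log2 fold change 1.34, SE 0.98, edgeR adjusted p = 0.680; 0.45, SE 0.20, without replicate 1). Of 23 inositol and phosphoinositide enzymes, 4 were higher and 5 lower, near those shares, with medians of -0.30 and 0.014. These are RNA levels, and the enzyme activities that lithium acts on were not measured.

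Genes of zinc and metal handling were mostly mixed between the groups. Of 25 tested members 5 were higher (20.0%) and 2 lower (8%) in both lithium libraries, against 17.1% and 17.5% of all tested genes, with medians of -0.16 and 0.028, and Mt2 alone passed a gap of 0.32. Mt2, a metallothionein, had 11 and 22 counts on CaP Zn0.8Mn and 31 and 39 counts with lithium, or 0.727 and 1.42 against 1.87 and 2.38 CPM (log2 fold change 0.98, SE 0.51, edgeR adjusted p = 0.680). Mt1, another metallothionein, read 155 and 404 CPM on CaP Zn0.8Mn, 369 and 478 with lithium, and 276 and 319 on CaP Zn. Its lithium libraries lay on either side of CaP Zn0.8Mn replicate 2 (log2 fold change 0.07, SE 0.15, without replicate 1). Slc30a1, the zinc exporter of the plasma membrane, read 35.4 and 25.9 CPM with manganese and 31.3 and 26.9 with lithium. Slc39a13, a zinc transporter of intracellular membranes, was higher in both lithium libraries at 43.6 and 43.3 CPM, against 20.2 and 39.0. Of 11 manganese transport genes 2 were higher and 2 lower, near those shares, with 0 past a gap of 0.32.

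Osteoclast genes were the list with the highest median against CaP Zn0.8Mn replicate 2, at 0.21 on the log2 scale, with 0.34 against replicate 1. Both lithium libraries were above both manganese libraries in 10 of 19 members and below in 1, against 17.1% and 17.5% of all tested genes. The lithium mean was above replicate 2, 1 library, in 17 of 19, against 48.7% of all tested genes. Only Oscar, at under 1 CPM in all libraries, passed a gap of 0.32, and none was called. Ctsk, cathepsin K, the collagen-degrading protease of osteoclasts, read 40.1 and 81.4 CPM on CaP Zn0.8Mn, 120 and 96.5 with lithium, and 67.3 and 106 on CaP Zn. Clcn7, the chloride transporter needed for acid secretion, read 50.8 and 71.6 CPM with manganese, 87.0 and 83.7 with lithium, and 71.6 and 76.8 on CaP Zn. Src, the kinase of the osteoclast cytoskeleton, read 14 and 18.4 against 21.9 and 22.8. In Clcn7 the lithium libraries were the highest of all 6, whereas in Ctsk and Src they overlapped with CaP Zn. Tcirg1, a subunit of the proton pump, read 235 and 394 CPM with manganese and 442 and 445 with lithium. Acp5, tartrate-resistant acid phosphatase, read 6.01 and 36.8 CPM against 51.6 and 37.2, a gap of only 0.02. Dcstamp, needed for cell fusion, went the other way at 26.6 and 6.59 CPM against 5.92 and 5.44. Fos and Fosl2, transcription factors counted here, also belong to the immediate early list.

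Spp1, osteopontin, a secreted bone matrix protein, read 2345 and 13774 CPM on CaP Zn0.8Mn, 12651 and 14905 with lithium, and 9148 and 9749 on CaP Zn. Lithium and CaP Zn0.8Mn replicate 2 overlapped, with a log2 fold change of 0.00 (SE 0.25) without replicate 1. Among 13 secreted factors that promote bone and vessels, 3 were higher and 1 lower in both lithium libraries, against 17.1% and 17.5% of all tested genes, with 0 past a gap of 0.32.

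Immediate early genes, the transcription factors and phosphatases induced soon after a stimulus, had 14 of 31 members higher in both lithium libraries and 3 lower, against 17.1% and 17.5% of all tested genes. Of these Nr4a1, Myc, Nr4a2 and Fosb passed a gap of 0.32 upward and Egr3 downward, which is 4 of 31 against 2.52% of all tested genes. The medians were 1.62 against CaP Zn0.8Mn replicate 1 and 0.09 against replicate 2. The lithium mean was above replicate 1 in 24 of the 31, so the 17.1% is a low reference for this list. Nr4a1, an orphan nuclear receptor, read 4.30 and 15.1 CPM on CaP Zn0.8Mn, 20.2 and 19.1 with lithium, and 19.5 and 18.4 on CaP Zn (log2 fold change 1.02, SE 0.56, edgeR adjusted p = 0.680). The manganese libraries were below the other 4. Fosb, an AP-1 subunit, read 0.330 and 1.94 CPM with manganese, 3.38 and 3.18 with lithium, and 2.04 and 3.45 on CaP Zn. Klf4, a transcription factor also listed among the M2 regulators, went the other way, at 34.1 and 14 CPM against 11.7 and 11.5.

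Among the 38 gene lists with at least 5 tested members, the medians ran from -3.69 to 2.66 against CaP Zn0.8Mn replicate 1 and from -0.36 to 0.21 against replicate 2. Against replicate 2, 32 of the 38 medians lay within 0.1 of 0, and against replicate 1 only 5 did. The sign was opposite for 25 of the 38, though the sign of a median within 0.1 of 0 is weakly defined. Of the 6 lists beyond 0.1 against replicate 2, the mitochondrially encoded mRNAs, Toll-like receptors, core macrophage genes and osteoclast genes had the same sign against both manganese libraries, and interferon-stimulated genes and nuclear-retained long RNAs did not. The lists hold 0 genes called in either edgeR fit.

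**Figure D5:**
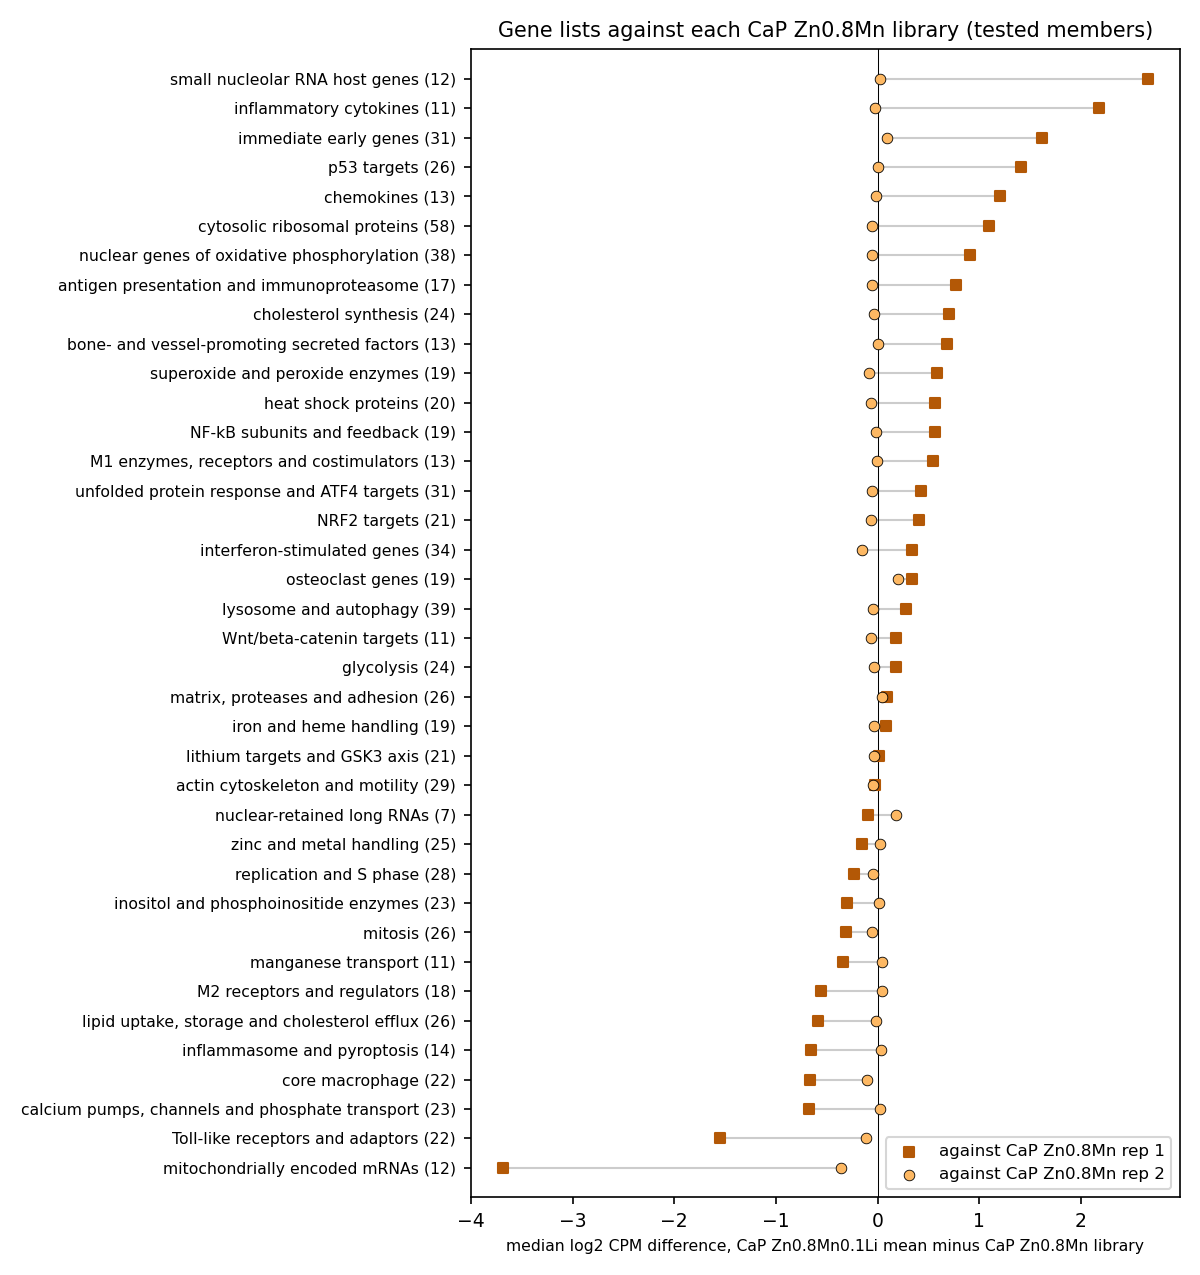
For each gene list (tested members in brackets), the median log2 CPM difference between the lithium mean and CaP Zn0.8Mn replicate 1 (squares) or replicate 2 (circles). The squares spread from -3.69 to 2.66 and the circles stay between -0.36 and 0.21.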

How the data were processed

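Polyadenylated RNA was sequenced in 6 libraries, 2 for each of 3 alloys, grouped by the treatment label. Read counts of 54532 genes, whole numbers, and FPKM values were deposited by the authors; FPKM are counts divided by gene length and library size. Aligner and counter: not given in the sources used here. Per the submitters' processing notes the build is mm9, but 53585 of 54495 gene identifiers matched to GENCODE M21 (98.3%) carry GRCm38 starts and ends, so coordinates are printed as GRCm38. The tables held 0 columns of other samples.

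Counts were tested with edgeR 4.0.16 in R 4.3.3 (quasi-likelihood, robust, TMM, filterByExpr, all 6 libraries, 3 residual degrees of freedom), two-sided, with Benjamini-Hochberg adjustment over all 13156 tested genes and a threshold of 0.05. Values are TMM-scaled CPM, and log2 differences used a prior count of 3. The test was checked on simulated data in which no library departed from the rest, so that check does not cover the effect of CaP Zn0.8Mn replicate 1. Floors of 3 counts cover counting error only. Between replicates, the chi-square of the counts per gene was 272 for CaP Zn0.8Mn, 6.04 for CaP Zn0.8Mn0.1Li and 11.4 for CaP Zn, all beyond sampling noise. Copies were found as shared 50-base stretches of GENCODE M21 transcripts.

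Genes were named by these rules: the 15 widest gaps in each direction among protein-coding genes of at least 5 CPM, up to 3 members with a gap of at least 0.32 (log2) in each list with at least 2 such members on a side, genes called with all libraries or without CaP Zn0.8Mn replicate 1, and Mt1, Mt2, Nos2, Tnf, Csf3, Spp1, Cd86, Gsk3b, Impa1 and Slc30a1. The comparison, the gene lists and these rules were chosen with earlier results of these data known. Alternatives were other size factors, library totals, DESeq2 1.42.0, limma 3.58.1 (voom, quality weights, and log2(FPKM + 1) or log2(FPKM + 0.1) for genes of mean FPKM at least 1), other filters, a 1.5-fold minimum, the replicate number as a block, the 4 libraries alone, omission of mitochondrial genes, and omission of each library in turn.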

Additional observations from a re-analysis of the deposited data

How the results depend on the processing

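The count of 0 called genes was also 0 with limma-voom, with quality weights, other size factors, library totals, a mean count of at least 100, the 4 libraries alone, a 1.5-fold minimum, FPKM, and mitochondrial genes left out. DESeq2 called 3 (Gapdh, Cx3cr1 and Tlr7) and no filter 1 (Gapdh). Leaving out a library gave 0 to 8096 calls: 2 without CaP Zn0.8Mn replicate 1, 8096 without replicate 2 and 0 without any other. On the 5 libraries without CaP Zn0.8Mn replicate 1, DESeq2 and limma-voom each called 3 (Gm10123, mt-Rnr2 and Gapdh). Correlations of the deviations between replicates were -0.09 between manganese and lithium libraries, 0.26 between manganese and CaP Zn, and -0.16 between lithium and CaP Zn. The manganese deviation is mostly that of replicate 1, so these values cannot tell whether replicate numbers pair the samples. The edgeR fit with the number as a replicate block called 0, with 213 genes at an unadjusted p under 0.05.

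The counts of 332 higher and 300 lower genes became 2250 and 2298 with a gap of any size, 94 and 106 at 1.5-fold, 121 and 71 on log2(FPKM + 1), and 50 and 49 at a mean count of at least 100. Leaving out a library gave 677 to 4507 higher and 503 to 4369 lower genes, the largest without CaP Zn0.8Mn replicate 2. The 30 genes with the widest gaps had 0 reversals. Reversals came in 6 genes, and the cause was not tested beyond the library left out. Leaving out 1 library at a time, log2 fold changes ran from -0.0230 to 3.42 for Tnf, -0.0394 to 3.61 for Nos2, -0.0656 to 0.172 for Impa1, -0.280 to 0.170 for Slc30a1 and -1.19 to 0.187 for Cd86. Each of these genes had 1 end of its range without CaP Zn0.8Mn replicate 1 and the other without replicate 2, and Impa1 (-0.0248) and Slc30a1 (0.0329) also changed sign without CaP Zn0.8Mn0.1Li replicate 2. Without CaP Zn0.8Mn replicate 1, DESeq2 gave -0.0237 for Tnf, -0.0401 for Nos2, -0.0662 for Impa1, 0.169 for Slc30a1, 0.187 for Cd86 and -0.000227 for Spp1. On the same libraries limma-voom gave -0.0235 for Tnf, -0.0394 for Nos2, -0.0675 for Impa1, 0.166 for Slc30a1, 0.185 for Cd86 and -0.00420 for Spp1. Leaving out a lithium library in the counts of gaps was added after the data were seen. The list medians were also taken with other size factors, library totals, log2(FPKM + 1) and a mean count of at least 100. Of 304 such values, 218 stayed within the SD between the lithium libraries and 86 moved beyond it. The largest move was 0.81 on the log2 scale. The sign changed in 12 values, for medians of at most 0.34 in size.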

Other observations

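Several large gene groups not described above lay much farther from CaP Zn0.8Mn replicate 1 than from replicate 2. Among all tested genes the lithium mean was above replicate 1 in 50.1% and above replicate 2 in 48.7%. Of 58 cytosolic ribosomal protein genes, the lithium mean was above replicate 1 in 56 and above replicate 2 in 15, with median log2 differences of 1.09 and -0.05. Nuclear genes of oxidative phosphorylation were above replicate 1 in 36 of 38 and above replicate 2 in 12, with medians of 0.91 and -0.05. The host genes of small nucleolar RNAs had the widest upward median, 2.66 against replicate 1, with 0.03 against replicate 2. For p53 targets, genes of cell cycle arrest and repair, 11 of 26 were higher in both lithium libraries and 2 lower, against 17.1% and 17.5% of all tested genes, and 0 passed a gap of 0.32 on the log2 scale. The lithium mean was above replicate 1 in 22 of these 26, so the 17.1% is a low reference for them.

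Genes of lipid uptake, storage and cholesterol efflux had 3 of 26 members higher and 8 lower in both lithium libraries. The shares of all tested genes were 17.1% and 17.5%. The lithium mean was above CaP Zn0.8Mn replicate 1 in only 7 of the 26, so the 17.5% is a low reference for this list. Its medians were -0.58 against replicate 1 and -0.01 against replicate 2. Nr1h3, the oxysterol-sensing receptor LXR alpha, and Dgat2, an enzyme of triglyceride synthesis, were lower past a gap of 0.32 on the log2 scale. Superoxide and peroxide enzymes had 0 of 19 higher and 3 lower. Their lithium mean was above CaP Zn0.8Mn replicate 2, 1 library, in 0 of the 19, against 48.7% of all tested genes, with a median difference of -0.08. Calcium pumps and phosphate transporters had 0 of 23 higher and 4 lower. The lithium mean was above CaP Zn0.8Mn replicate 1 in only 2 of these 23, which left few that could be higher than both manganese libraries. For this list the 17.5% is therefore a low reference. Mmp12, the macrophage elastase, was the 1 of 26 matrix and adhesion genes past a gap of 0.32 on the log2 scale. The genes named here were picked with their values known, and none was called by edgeR (lowest adjusted p of the fit 0.680).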
